A study of Mus musculus with 16 samples.

Results

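The vehicle-treated cultures of a study of mouse dorsal root ganglion neurons are described here on their own, as a baseline transcriptome. They were the 4 libraries, of 16 in all, that received DMSO in both treatment steps, and the 12 libraries with a DLK inhibitor or nocodazole were not analysed here. The cells came from embryonic ganglia of CD1 mice, an outbred stock. They grew in Neurobasal and B27 on plates coated with poly-D-lysine and laminin. The medium also held 1 µM 5-fluoro-2'-deoxyuridine and 1 µM uridine, which hold back dividing cells. On day 6 in vitro DMSO was added, and 15 min later DMSO again, for 16 h. Every culture of the study shared the antimitotic mixture and the embryonic source, so the profile is that of embryonic neurons in culture. Their maturity was not measured. How many embryos went into each culture, and whether the replicates were separate cultures, are not given in the sources used here, so the spread below may be technical.

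Dorsal root ganglia hold the cell bodies of the sensory neurons that carry pain, temperature, itch, touch and limb position from the body to the spinal cord. Their subtypes are told apart by the growth factor receptors they bear (such as TrkB, TrkC or Ret), by peptides, and by the ion channels that turn heat, cold, acid or pressure into a current. In the tissue, the neurons are wrapped by satellite glia, and their axons by Schwann cells.

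RNA was depleted of ribosomal RNA before library construction, so transcripts without a poly(A) tail could be counted too. Total counts ran from 33166353 to 43321421 per library. Levels are given on 2 scales. CPM, counts scaled to a common library size, says where the reads went. TPM, the same value divided by exon length and multiplied by 1 constant for all libraries, is the scale used to compare genes with each other. Values are means ± SD over 4 libraries (n = 4) unless stated, and library values are listed for replicates 1 to 4. Levels of a pair of genes are said to differ where their 4-library ranges did not overlap, with no p-value. In all, 13344 genes reached 1 CPM in every library, and 11835 of them were protein-coding, out of 21863 annotated as such. For lists of protein-coding genes, counts of members detected are to be read beside that share. A count of 0 over the 4 libraries allows a level of up to 0.0207 CPM, for counting error only.

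The libraries carried the marks of sensory ganglion neurons. All 18 of 18 pan-neuronal genes were detected, and 16 of them were at 100 TPM or more. Tubb3, the neuronal β-tubulin, was at 6693, 7162, 6410.2 and 7219 TPM. It was the gene at rank 4 of the TPM ranking, with a mean of 6871 ± 387 TPM. Prdm12, a chromatin-associated factor that nociceptor precursors need, was at 1287, 1272, 1312 and 1352 TPM. Its 4 libraries lay close together (CV 2.66%), and its mean of 1306 ± 34.8 TPM stood above every other transcription factor in the list of 36, with no overlap of ranges. Isl1, a LIM-homeodomain factor of sensory and motor neurons, was much lower, at 41.4, 41.3, 42.6 and 40.3 TPM, and as even between libraries (CV 2.34%). Prdm12 exceeded Isl1 per length by 31.6 ± 1.34 times.

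Other factors of the sensory lineage were present at intermediate levels. Pou4f1 (Brn3a), which acts with Isl1 in sensory neurons, was at 235 ± 2.11 TPM. Tlx3, a homeobox factor of glutamatergic sensory neurons, was at 175 ± 17.3 TPM, with 161, 159.8, 185 and 194 TPM by replicate. Prrxl1 (Drgx), a homeobox factor of nociceptor circuits, was at 51.4 ± 0.357 TPM and among the least variable of them (CV 0.693%). Prdm8 at 186 ± 19.7 TPM overlapped Tlx3 in range, and so did the ETS factor Etv5 at 159.8 ± 35.2 TPM. Etv5 was 179, 198, 121 and 141 TPM by replicate, with replicates 1 and 2 above replicates 3 and 4. The proneural genes of the precursor stage were nearly silent. Neurog1 had a mean of 0.0595 CPM and Neurog2 had 0 counts in all 4 libraries.

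The highest genes were mostly those of the axon's cytoskeleton. By CPM, 12 of the 20 highest entries were cytoskeleton genes, and by TPM 10 of 20 were. Map1b, a microtubule-associated protein of growing axons, was the highest gene with a symbol by CPM, at 9499, 9501, 8639 and 7941 CPM. Its replicates 1 and 2 were higher than replicates 3 and 4. Per length the order changed: Tuba1a, an α-tubulin, led at 16164 ± 759 TPM and had no overlap with the next gene. It was followed by mt-Co1, a mitochondrially encoded subunit of cytochrome oxidase, at 8465 ± 1040.3 TPM and by Tubb2a at 8110.4 ± 449 TPM. Of the 50-base windows in Tuba1a transcripts, 72.9% also occur in other genes, and of those in Tubb2a 49.6%. Their separate values are therefore uncertain, whereas Tubb3 shares 0% of its windows.

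The intermediate filaments of peripheral neurons were close behind. Prph (peripherin), a filament of small-diameter sensory neurons, was at 6006, 5922, 6003 and 6423 TPM. The neurofilament light chain Nefl was at 5198 ± 227 TPM, and the heavy chain Nefh, a marker of large myelinated neurons, at 383 ± 29.4 TPM. Prph exceeded Nefh by 16.0 ± 1.29 times per length, and the ratio ran from 14.1 to 16.9 in the 4 libraries. Further genes among the 20 highest by CPM were Dpysl3 (CRMP4), a collapsin response mediator protein, at 4061 ± 85.9 CPM, Nefm at 3802 ± 121 CPM and the ankyrin gene Ank2 at 3795 ± 479.7 CPM. The dynein heavy chain Dync1h1, the motor of retrograde transport, was at 3183 ± 270.3 CPM, and the lipid desaturase Scd2 at 3248 ± 352 CPM. Sncg (γ-synuclein), abundant in peripheral neurons, closed the TPM ranking of 20 at 3061 ± 171 TPM.

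**Figure D1:**
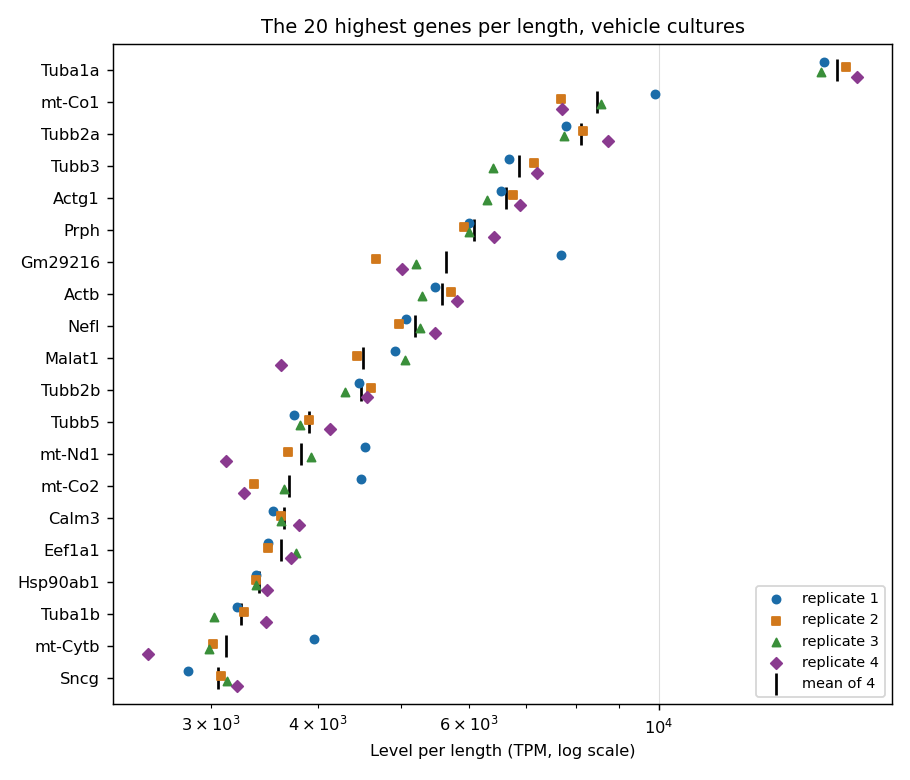
Level of the 20 genes highest in mean TPM (log axis) in each of the 4 vehicle libraries, with 1 marker per replicate and a tick at the mean. Tuba1a stands alone at 15476 to 17049.5 TPM, and the mitochondrially encoded genes and Gm29216 have replicate 1 as their highest library.

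A pair of caveats attach to the ranking. The entry Gm29216, annotated as a pseudogene, ranked among the 20 highest at 5645 ± 1377 TPM. However, 97.1% of its 50-base windows also occur in mt-Co1, so most of its reads cannot be told apart from those of mt-Co1. Of the windows of mt-Co1, 28.7% occur in Gm29216 and 51.1% in any other gene, so its separate value is uncertain too. By CPM, 4 of the 20 highest entries were identifiers with no symbol in the annotation used. The highest of all, ENSMUSG00000118866, was at 21188, 12460.0, 8264 and 10973 CPM, and it has no length here and so no TPM.

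Growth factor receptors differed widely in level. Ngfr, the p75 receptor that binds all neurotrophins, was at 2083, 2297, 1787 and 2164 TPM. Ntrk3 (TrkC), the receptor of proprioceptors and some touch neurons, was at 9.43 ± 0.587 TPM and Ntrk2 (TrkB) at 0.261 ± 0.0597 TPM. With the longest transcript as length in place of the union of exons, Ntrk3 was at 11.3 TPM and Ntrk2 at 0.450 TPM.

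Ret, the signalling receptor for the GDNF family, was at 511, 502, 428 and 499.7 TPM, with replicate 3 the lowest. Its co-receptors were unequal. Gfra1, which binds GDNF, was at 86.2 ± 9.24 TPM, Gfra3, which binds artemin, at 22.9 ± 2.28 TPM, and Gfra2, which binds neurturin, at 4.38 ± 1.07 TPM, with no overlap between these 3. Gfra2 differed by replicate, at 5.50, 5.06, 3.32 and 3.63 TPM, with replicates 1 and 2 above the others. The cytokine receptor genes Lifr and Il6st, whose products pair to receive LIF, were at 384 ± 48.7 and 258 ± 19.8 TPM. Of the 24 growth factor receptors listed, 18 were detected, while Egfr and Met were at 0.0527 and 0.0318 CPM, from 7 and 5 counts in total. Those means were 0.0294 CPM without replicate 1 and 0.0198 CPM without replicate 3.

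Markers of the adult classes of sensory neuron were detected only in part. Runx1, which directs non-peptidergic nociceptors, was at 17.3, 21.2, 16.2 and 15.1 CPM. Runx3, which directs proprioceptors, had 2 counts in total, below the 3 counts that set the floor. Among adult markers of the non-peptidergic class, P2rx3 and Ret were high, while the Mas-related receptor Mrgprd had 3 counts in total and Mrgprb4, Mrgprb5 and Lpar3 had 0. Mrgprx1, a related itch receptor, was present at 34.1 ± 2.91 TPM. Of the 10 itch markers listed, 2 were detected, the widely expressed kinase Jak1 and the histamine receptor Hrh1 at 2.97 ± 0.554 TPM. Sst and Nppb, peptides of itch neurons, had 0 counts.

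Touch and position markers gave a mixed picture. Pvalb, a calcium-binding protein of adult proprioceptors, was at 204, 209, 207 and 222 TPM, an even level (CV 3.70%), in libraries where Runx3 and the proprioceptor gene Spp1 (15 counts in total) were near the floor. Etv1, an ETS factor of proprioceptors, was at 59.8 ± 5.82 TPM, or 94.4 TPM with the longest transcript as length. Of 12 proprioceptor markers, 6 were detected, and of 15 markers of A-fibre touch neurons 12 were. Over all protein-coding genes 11835 of 21863 were, a share close to that of the proprioceptor list. Maf was detected at 51.8 CPM, and its relative Mafa was below detection at 0.329 CPM. Of 8 markers of C-fibre touch neurons, 5 were detected, among them Piezo2 and the calcium channel gene Cacna1h at 39.3 ± 2.69 TPM, while Th had a mean of 0.208 CPM and Slc17a8 (VGLUT3) 0.0976 CPM. In whole-culture RNA, fewer cells of a type and less RNA per cell cannot be told apart.

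Few neuropeptide genes were expressed. Of 41 listed, 7 were detected and 7 had no count at all, among them Tac2, Nmu and Avp. Calca, which encodes CGRP, was the highest, at 123, 222, 148 and 159.8 TPM. Replicate 2 was the highest of its libraries and replicate 1 the lowest (CV 25.6%). Calca exceeded Tac1, the substance P precursor, by 7.07 ± 0.473 times per length, a ratio that ran only from 6.61 to 7.71. Tac1 was at 18.7, 28.8, 21.6 and 22.5 TPM and Adcyap1, which encodes PACAP, at 15.2, 24.5, 18.9 and 19.1 TPM, both with replicate 2 the highest and replicate 1 the lowest, as in Calca. Gal (galanin), a peptide of immature and injured neurons, had a different order, at 32.2, 30.1, 37.5 and 44.7 TPM. Bdnf, a neurotrophin stored with peptides in nociceptors, was at 12.8 ± 0.839 TPM. Calcb, a relative of Calca, was at 3.43 ± 0.796 TPM, and 1.2% of its 50-base windows also occur in Calca.

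The list of granin and peptide-processing genes stood far above the neuropeptide list. Of its 17 genes, 16 were detected. Its summed level was 4272 ± 69.0 TPM, against 286 ± 47.7 TPM for the 41 neuropeptides. It includes Peg3, at 224 TPM, and secreted proteins such as Chga and Vgf, so the sum is not that of processing enzymes alone. Cpe, the carboxypeptidase that trims peptide ends, was at 789 ± 15.5 TPM, Pcsk1n, an inhibitor of a prohormone convertase, at 705 ± 50.1 TPM and Chga (chromogranin A) at 529.8 ± 20.9 TPM. Among convertases, Pcsk2 exceeded Pcsk1 by 33.9 ± 6.05 times per length. Vgf, a neurotrophin-induced secreted protein, was less even, at 451, 474, 303 and 367 TPM, with replicates 1 and 2 above 3 and 4.

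Genes of glutamate use led the transmitter genes. Slc17a6 (VGLUT2), a vesicular glutamate transporter, was at 327, 336, 320.0 and 322 TPM, with a CV of 2.19%. It exceeded Slc17a7 (VGLUT1) by 28.9 ± 7.52 times per length. The GABA-synthesis gene Gad2 had 0 counts, Gad1 had 2 in total, and the vesicular GABA transporter Slc32a1 and the acetylcholine-synthesis gene Chat had 1 each. Of 23 transmitter genes, 6 were detected.

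Among voltage-gated channels the nociceptor sodium channel stood out. Scn10a (Nav1.8), which carries much of the action potential in nociceptors, was at 926, 871, 839.8 and 873 TPM. It exceeded Scn9a (Nav1.7), at 296 ± 23.4 TPM, by 2.98 ± 0.198 times per length, and Scn11a (Nav1.9), at 78.4 ± 4.45 TPM, by 11.2 ± 1.06 times. Scn7a, an atypical channel gene, was at 347 ± 33.1 TPM and overlapped Scn9a. Both had replicates 1 and 2 above replicates 3 and 4. All 15 of 15 sodium channel genes were detected. Of the auxiliary subunits Scn3b was highest at 216 ± 8.54 TPM, and Scn4b was at 1.52 ± 0.264 TPM.

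Of 44 potassium channel genes, 37 were detected, and the 5 highest made up 48.1% of the summed TPM. Kcnab2, a β-subunit, and Kcna6, a Shaker-type channel, led at 257 ± 13.8 and 239 ± 16.8 TPM and overlapped in range. Kcnc4 and Kcnd1, genes of fast-inactivating channels, were at 172 ± 13.5 and 129.7 ± 6.98 TPM. The calcium channels were led by Cacna1b (Cav2.2, the N-type channel of sensory terminals) at 471, 463, 403 and 428 TPM, which exceeded the P/Q-type gene Cacna1a by 3.24 ± 0.220 times. The α2δ genes Cacna2d2 and Cacna2d1, the second of which encodes a binding site of gabapentin, were at 159.6 ± 8.96 and 147 ± 8.14 TPM and overlapped. The pacemaker channel gene Hcn2 was at 132 ± 10.4 TPM. Slc12a2 (NKCC1), which loads chloride, exceeded the chloride exporter Slc12a5 (KCC2) by 30.9 ± 7.88 times per length, with 24.1 to 42.0 across libraries.

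The channels that detect stimuli ranged over more than 3 orders of magnitude. P2rx3, the ATP-gated channel of nociceptors, was highest at 736, 560.0, 728 and 690.2 TPM, with replicate 2 the lowest. Piezo2, the mechanically gated channel of touch and position, was at 375, 347, 309 and 315 TPM. The acid-sensing genes Asic4, Asic1 and Asic3 were at 149 ± 14.5, 96.6 ± 6.84 and 93.9 ± 12.7 TPM. Trpm8, the cold and menthol channel, was at 57.5, 74.9, 65.4 and 65.6 TPM. Trpv1, the heat and capsaicin channel, was at only 2.82, 5.43, 3.27 and 3.77 TPM, with replicate 2 the highest. Trpm8 exceeded Trpv1 by 17.9 ± 3.04 times and P2rx3 exceeded it by 192 ± 67.4 times, the latter ratio running from 103 to 260.5. Trpa1, the irritant channel, was below detection at 0.157 ± 0.0304 CPM, as was Trpv4 at 0.0347 CPM, from 5 counts in total (0.0174 CPM without replicate 2). Piezo2 exceeded Piezo1 by 78.2 ± 15.9 times per length.

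**Figure D2:**
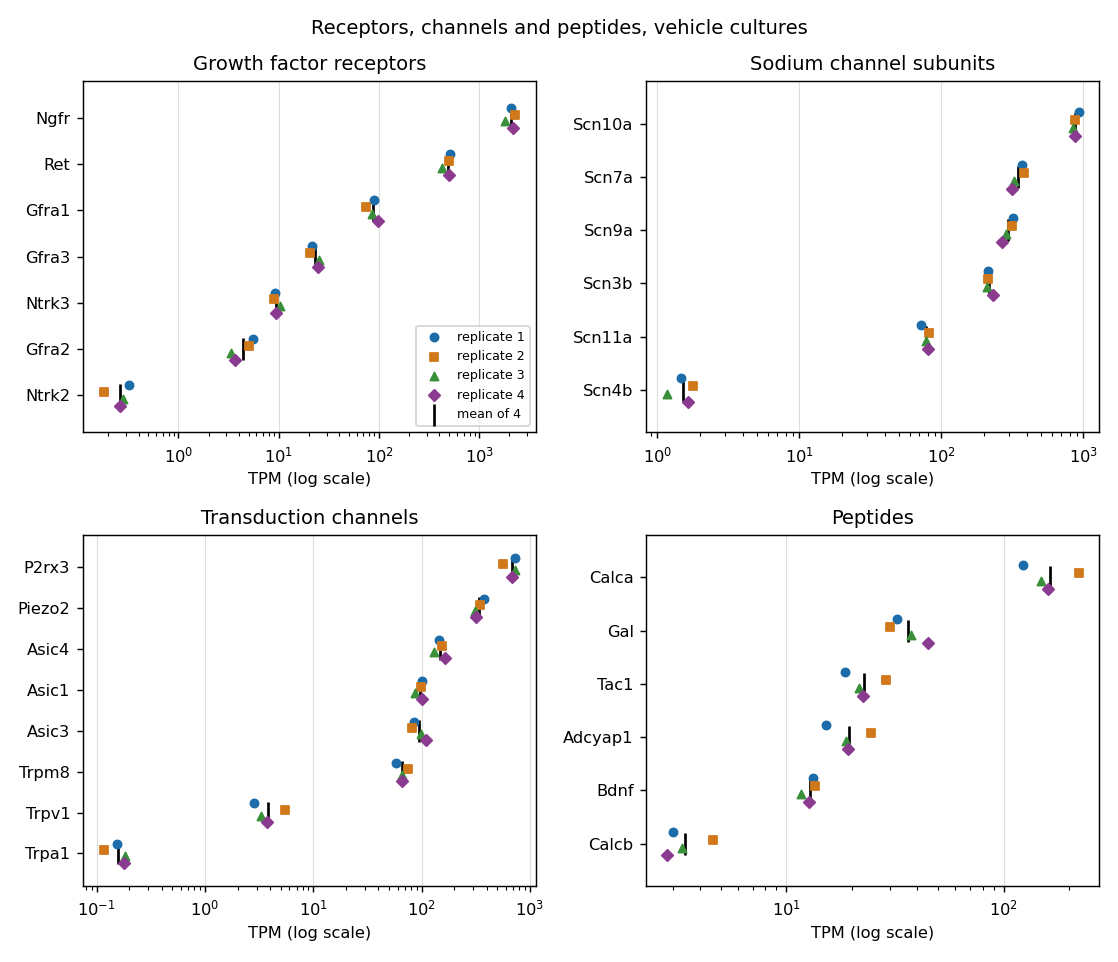
TPM (log axes) of growth factor receptors, sodium channel subunits, transduction channels and peptides in each of the 4 vehicle libraries, with a tick at the mean. Within each family the range from the highest to the lowest gene is much wider than the spread of libraries. Some neighbours overlap, such as Scn7a with Scn9a, Asic1 with Asic3 and Tac1 with Adcyap1. Calca, Tac1 and Trpv1 share replicate 2 as their highest library.

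The G protein-coupled receptors were led by those of GABA, adhesion and prostaglandins. Gabbr1 and Gabbr2, the subunits of the metabotropic GABA receptor, were at 468 ± 14.3 and 216 ± 10.7 TPM. Ptgir, the prostacyclin receptor that sensitises nociceptors, was at 196, 202, 211 and 207 TPM, an even level that overlapped Gabbr2. Ptger3, a prostaglandin E receptor, was at 87.5 ± 7.73 TPM. Adgrl1 and Celsr3, adhesion receptors, were at 284 ± 9.34 and 101 ± 2.93 TPM. The µ opioid receptor gene Oprm1 was at 58.5, 62.7, 64.1 and 64.9 TPM, and exceeded Oprd1 by 19.5 ± 2.48 times and Oprk1 by 23.6 ± 3.45 times per length. With the longest transcript as length, in place of the union of exons, Oprm1 was at 162 TPM and Oprk1 at 4.14 TPM. In all 51 of 84 listed G protein-coupled receptor genes were detected. Among ligand-gated channels 29 of 40 were. Grik5, a kainate receptor subunit of C-fibre neurons, led at 160.2 ± 6.82 TPM. The serotonin-gated channel Htr3a was at 72.5 ± 5.32 TPM and the nicotinic subunit Chrnb2 at 69.4 ± 2.88 TPM.

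Of 25 genes of axon growth and injury, 16 were detected, and they ranged widely. Gap43, a growth cone protein, was at 2689.8, 2805, 2635 and 2773 TPM and Basp1, its functional relative, at 1316 ± 57.5 TPM. Klf7, a factor linked to axon growth, was at 338 ± 15.7 TPM. Atf3, a factor induced by axon damage, was at 2.33, 1.497, 8.32 and 4.45 CPM, a CV of 73.4%, with a mean of 2.76 CPM without replicate 3, and Sprr1a, also induced by damage, had 0 counts. Jun was 51.6, 74.7, 124 and 118 TPM by replicate, with replicates 1 and 2 below replicates 3 and 4, and so was Jund, at 579, 659.6, 754 and 826 TPM. The injury-responsive factors Klf6, Stat3 and Sox11 were at 150.0 ± 7.19, 87.2 ± 0.377 and 61.4 ± 5.90 TPM. Of 25 immediate early genes 11 were detected. The summed TPM of the list ran from 736 to 1066, with 76.7% of the mean sum in Jund alone. Fos had a mean of 0.181 CPM.

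Long noncoding RNAs took 2.18% ± 0.206 of the counts. Malat1, a nuclear RNA found in most cells, was at 8015, 7239.6, 8245 and 5894 CPM, with replicate 4 the lowest. It exceeded the next long noncoding gene per length without overlap, at 4513 ± 651 TPM. Meg3 and Rian, from the imprinted Dlk1-Dio3 cluster of chromosome 12, were at 4168, 3714, 3925 and 3049 and 1469, 1329, 1369 and 1166 CPM, again lowest in replicate 4. Snhg11, a host of small nucleolar RNA, was at 559.6 ± 45.9 TPM, 2900097C17Rik (Norad), a cytoplasmic RNA that binds Pumilio proteins, at 720.1 ± 15.2 TPM and Peg13, an imprinted RNA, at 355 ± 15.6 TPM. Norad was the steadiest of these, with a CV of 2.11%. Kcnq1ot1, a long imprinted antisense RNA, was at 190.4, 146, 118 and 81.8 CPM, which differed more than most, with replicate 1 the highest and replicate 4 the lowest. Neat1, the scaffold of paraspeckles, was at 5.92 CPM. Of 39 listed genes 28 were detected, against 723 of all 9902 genes annotated as long noncoding. Of the 29 listed genes with a mean of at least 1 CPM, 15 were lowest in replicate 4, against 25.9% of all genes at that level.

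Several of these noncoding genes contain microRNA hairpins. Of 1005 hairpins in the RefSeq table (GRCm38.p6), 124 lay inside an annotated noncoding gene. There were 78 such hosts, of which 31 were detected, and these 31 held 62 of the hairpins. Over all genes annotated as long noncoding, 723 of 9902 were detected. The mature microRNAs were not measured, so only the host level is known. The mature sequences below are examples from 7 of the detected hosts, chosen after the host levels were seen, with capitals marking the seed (bases 2 to 8), the part that pairs with target mRNA.
miR-770-3p: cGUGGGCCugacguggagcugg
miR-370-3p: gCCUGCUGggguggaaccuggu
miR-138-5p: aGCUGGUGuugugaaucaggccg
miR-100-5p: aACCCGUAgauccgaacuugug
miR-125b-5p: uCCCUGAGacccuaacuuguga
miR-134-5p: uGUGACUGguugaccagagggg
miR-137-3p: uUAUUGCUuaagaauacgcguag

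The first of these lies in Meg3 at chr12:109563744-109563765 and the second in Rian at chr12:109618305-109618326, both on the plus strand. The neuronal miR-138-5p has the same mature sequence in 2 hosts: C78859, at 129.8 ± 18.1 CPM, holds a copy at chr8:94324312-94324334 (plus strand), and Gm47135, at 13.1 ± 2.13 CPM, holds another at chr9:122682898-122682920 (plus strand). The gene 3110039I08Rik was at 77.0, 74.0, 72.4 and 60.1 CPM and spans miR-100-5p at chr9:41531437-41531458 and miR-125b-5p at chr9:41581940-41581961 (plus strand). Mirg, a further gene of the chromosome 12 cluster, contains 14 of the hairpins and was at 74.6, 68.5, 69.5 and 60.5 CPM. Its miR-134-5p lies at chr12:109734145-109734166 (plus strand). Gm26871, at 35.2, 31.9, 26.0 and 17.3 CPM, contains miR-137-3p at chr3:118433901-118433923 (plus strand). In Meg3, Rian, C78859, Mirg and Gm26871 alike, replicate 4 was the lowest library and replicate 1 the highest.

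The listed markers of other cells were scarce. The 4 lists for fibroblasts, endothelium, macrophages, and pericytes with smooth muscle held 55 genes, of which 6 were detected. Together they came to 0.2996% ± 0.0131 of the summed TPM of the pan-neuronal genes. Fibroblast markers summed to 14.6, 15.7, 16.4 and 14.9 TPM, of which Col5a1 gave 8.15 TPM. The defining collagen genes Col1a1 and Col3a1 were at 0.607 and 0.341 CPM, the first at 0.349 CPM without replicate 3. Endothelial markers summed to 38.4, 32.5, 33.4 and 36.7 TPM, with 83.8% in Egfl7 alone, while Pecam1 was at 0.239 CPM and Cdh5 and Cldn5 had 3 counts each. Macrophage markers summed to 5.59, 7.997, 6.93 and 6.85 TPM, with Csf1r at 0.673 CPM and Cx3cr1 at 1 count in total. Pericyte and smooth muscle markers summed to 4.37, 4.15, 6.03 and 4.38 TPM, led by Tagln at 1.21 TPM. The gene of the stromal glycoprotein Cd248, which is not in these lists, was at 31.1 ± 12.3 TPM.

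The Schwann and satellite glia list summed to 2629, 2902, 2316 and 2727 TPM. This was 12.7% ± 1.04 of the pan-neuronal sum, but 78.8% of it was Ngfr, which sensory neurons also express. S100b, Cdh2 and Glul made up most of the remainder, at 267, 139.7 and 72.3 TPM. Without Ngfr alone the list came to 561 TPM. Leaving out all 4 genes, which were its 4 highest members, brought it to 82.1 ± 2.46 TPM. Of the 28 genes listed, 8 were detected and 19 were below 1 TPM. Pmp22 was at 18.6 TPM, but Sox10 and Mag were at or near the floor. Sox10, the glial lineage factor, was at 0.0921, 0.201, 0.0905 and 0.208 CPM, and Mag, a myelin-associated protein, had 0 counts. Mbp was nevertheless at 65.0, 67.5, 63.0 and 71.5 CPM. Mbp shares its locus with Golli transcripts made outside glia, and the table gives a single value per gene.

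Lists for other sources summed to low levels too. Proliferation genes summed to 49.0 ± 1.68 TPM, of which Pcna gave 26.8 TPM, while Mki67 was at 0.921, 0.777, 0.724 and 0.801 CPM and Top2a at 0.311 CPM. Erythroid genes summed to 22.4, 35.7, 23.4 and 16.2 TPM, with replicate 2 the highest and replicate 4 the lowest, and Hbb-y, an embryonic globin, was at 0.307, 1.64, 0.317 and 0.415 CPM, a mean of 0.346 CPM without replicate 2. Markers of spinal cord neurons and glia summed to 3.47 ± 0.546 TPM, mostly Mog at 2.99 TPM, and the motor neuron factor Mnx1 and the interneuron factor Lhx5 had 0 counts. Sympathetic and enteric markers summed to 3.63 ± 0.899 TPM, skeletal muscle and cartilage markers to 5.46 ± 0.361 TPM and keratinocyte markers to 3.73 ± 0.542 TPM. Dbh, which makes noradrenaline, had 1 count in total.

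**Figure D3:**
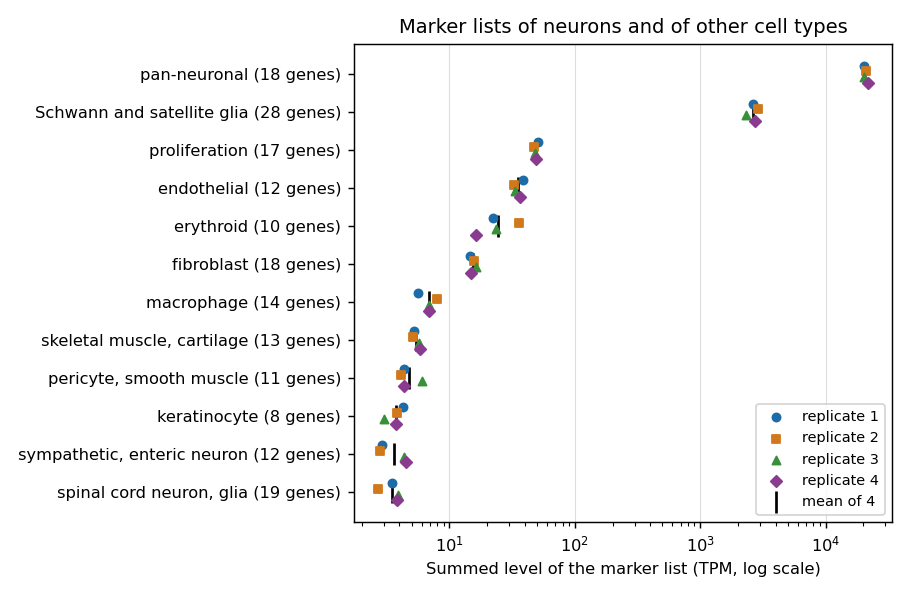
Summed TPM (log axis) of the pan-neuronal list and of lists for other cell types in each of the 4 vehicle libraries, with a tick at the mean and the number of genes in brackets. The pan-neuronal list lies at 20100.1 to 21787 TPM, the Schwann and satellite glia list (mostly Ngfr) at 2316 to 2902 TPM and every other list below 60 TPM.

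The 4 libraries were similar to each other in most genes. Over the 14025 genes with a mean of at least 1 CPM, the median CV was 6.72%, where counting error alone gives a median of 3.60%. Over the 9111 genes at 10 CPM or more it was 5.07%, against 2.46% from counting. The common biological coefficient of variation estimated by edgeR was 8.23%. Between pairs of libraries, the median absolute log2 difference over those 9111 genes was lowest for replicates 1 and 2, at 0.061, and next for replicates 3 and 4, at 0.074. The other 4 pairs lay between 0.080 and 0.093. Genes at least 2-fold apart were fewest for replicates 3 and 4, at 3, against 8 for replicates 1 and 2 and at least 12 for the others. No pair was a copy, since chi-square over its degrees of freedom came to at least 16.1, where counting alone gives 1.

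Gene groups differed in how far the libraries spread. The median CV of members with at least 1 CPM was 4.02% in the pan-neuronal list, 4.38% in the cytoskeleton list and 5.70% in the sodium channels, against 18.3% in the neuropeptides and 25.3% in the immediate early genes. These lists differ in level, and low genes carry more counting error. In the small structured RNA list it was 45.8%, and in the mitochondrially encoded genes 19.1%. Of the 15 mitochondrially encoded genes, 14 were highest in replicate 1 and 14 lowest in replicate 4, against 24.3% and 25.9% of all genes. Their share of counts was 1.07%, 0.834%, 0.909% and 0.765%.

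**Figure D4:**
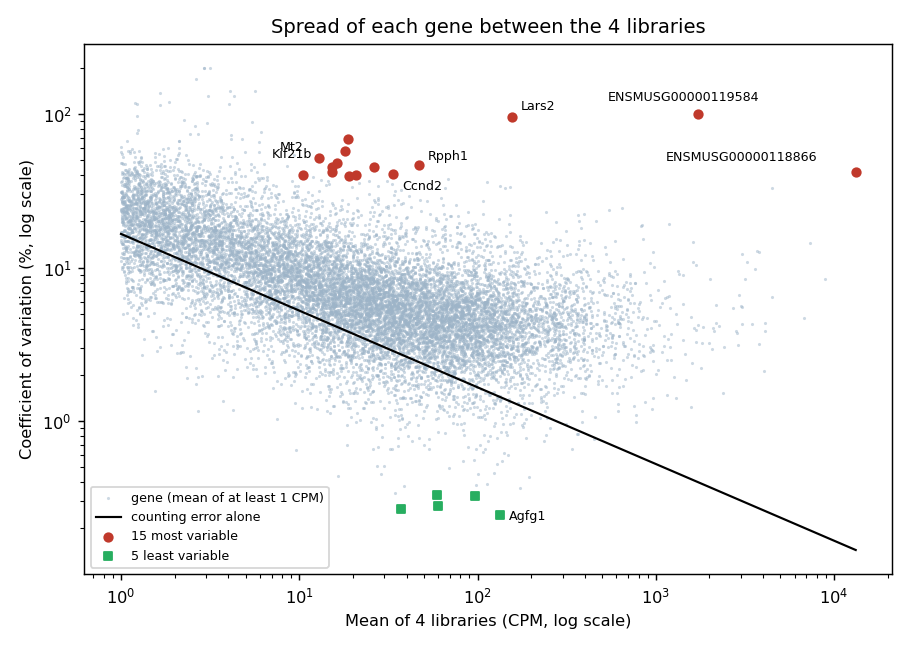
Coefficient of variation over the 4 vehicle libraries (log axis) against mean CPM (log axis) for each gene with a mean of at least 1 CPM, with the counting error as a line. Most genes lie on or above the line, the 15 most variable at 10 CPM or more (red) reach 101%, and the 5 least variable (green) lie below it.

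Among genes at 10 CPM or more, the most variable were set by single libraries in several cases. The identifier ENSMUSG00000119584 was at 4309, 1127, 987 and 489 CPM, and its CV of 101% was 38.7%, and its mean 868 CPM, without replicate 1. Lars2, a mitochondrial leucyl-tRNA synthetase, was at 379, 90.2, 89.3 and 63.4 CPM, and its CV of 96.2% was 18.8%, and its mean 81.0 CPM, without replicate 1. The mitochondrial ribosomal RNA genes mt-Rnr2 and mt-Rnr1 were at 36.9, 14.8, 16.5 and 6.47 and 31.03, 17.04, 18.2 and 5.79 CPM, both highest in replicate 1 and lowest in replicate 4. Mt2, a metallothionein that binds zinc, was at 23.0, 10.9, 8.48 and 9.47 CPM, with a CV of 12.8% without replicate 1. Without replicate 1, ENSMUSG00000118866 had a CV of 20.1% in place of 42.3%.

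Replicate 2 was the low library for 2 protein-coding genes. Ccnd2 (cyclin D2) was at 39.3, 13.5, 44.0 and 38.2 CPM, with a CV of 40.7% that became 7.57% without it, and Kif21b, a kinesin, was at 16.3, 5.84, 24.6 and 18.2 CPM. Dusp6, a phosphatase induced by ERK signalling, was at 15.8, 24.2, 10.4 and 10.7 CPM, highest in replicate 2, and its CV of 42.1% was 24.5% without it. Replicates 1 and 2 were both below replicates 3 and 4 for the RNase P RNA Rpph1 at 23.0, 35.2, 71.2 and 58.5 CPM, for its relative Rprl3 at 9.64, 9.09, 22.6 and 19.4 CPM, for the orphan receptor Gprc5c at 11.6, 16.0, 29.1 and 26.6 CPM and for Cd248, a stromal glycoprotein, at 11.7, 13.8, 22.7 and 27.5 CPM. Of the windows of Rpph1, 68.1% are shared with the overlapping gene Ccnb1ip1, so its value is uncertain. The lowest CVs among the 9111 genes were those of Agfg1, Fech, Mcu, Vps53 and C1qbp, which were picked by that value. Agfg1 was at 134, 135, 134 and 134 CPM, and its CV of 0.244% lay under the 1.43% that counting error gives.

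**Figure D5:**
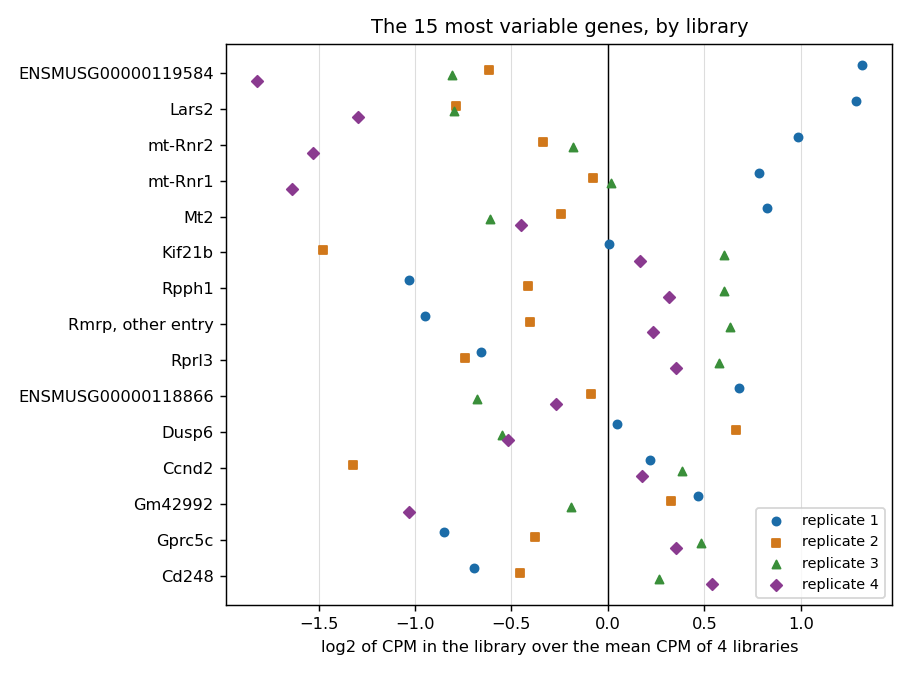
The log2 ratio of each library's CPM to the 4-library mean for the 15 most variable genes with a mean of at least 10 CPM, with 1 marker per replicate. Replicate 1 is the highest library in 7 of the 15 and replicate 3 in 6, in genes picked for their spread. Of all genes with a mean of at least 1 CPM, 24.3% are highest in replicate 1, and that share was not computed for replicate 3.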

How the data were processed

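RNA was measured in 4 vehicle-treated libraries of embryonic dorsal root ganglion neurons. The deposited table holds whole-number counts, with genes as Ensembl identifiers. Per the submitters' processing notes, STAR and Salmon were used with GRCm39, with no versions. Which of them made the counts, the annotation release, the strand setting and how multimapping reads were counted are not given in the sources used here, so the values of near-identical, overlapping or antisense genes are uncertain. The table's 12 columns of treated libraries were mapped by their names but not analysed.

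Of 55356 identifiers, 52080 (94.1%) took a symbol, type and exon length from GENCODE M21 (GRCm38), which is not the authors' build. Identifiers without a symbol held 2.20% to 4.02% of the counts per library. Libraries were scaled in edgeR 4.0.16 (R 4.3.3) by the trimmed mean of M-values over these 4 libraries (factors 0.982 to 1.021), and DESeq2 1.42.0 gave alternative factors. TPM was CPM per kilobase of merged exons, for genes of at least 200 bases, multiplied by 1 constant. Detected means at least 1 CPM in all 4 libraries. CV is SD over mean, and the counting CV is that of a Poisson count. The common biological coefficient of variation came from edgeR with 1 mean for the group. Scaling, gene length, the detection threshold and each library were varied as alternatives.

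Genes named were taken from the markers, the 20 highest by CPM and by TPM, the 5 highest of each list by TPM, defining members below 1 CPM, and the 15 most and 5 least variable at a mean of 10 CPM or more, without naming each of them. Other list members were named after their values were seen. The members and the 39 gene lists were chosen with earlier results of these data known, and 10 list entries matched no identifier and were not analysed here. Some genes and 1 component of the culture medium are not reported here. No difference between groups was tested, since a single group is described. The depth allowed 1 CPM to rest on 32.6 to 44.2 counts.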

Additional observations from a re-analysis of the deposited data

Results flagged for a closer look

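In 14 of 219 values examined (6.39%), the highest or lowest of the 4 libraries lay far from the other 3, with a gap to the nearest that, as a share of the whole range, was above Dixon's critical value for 4 samples. Chance flags about 1 in 20 groups. That rate is no yardstick here, because the values include genes picked for their high or low spread between these libraries (Lars2, Mt2, ENSMUSG00000119584 and Fech) and lists that hold other genes named, such as Ret. Genes with 3 counts or fewer in total were left out. None of these was compared with a treated group, and their causes were not tested.

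Replicate 1 stood apart on the high side for Lars2, at 379 CPM, for the identifier ENSMUSG00000119584 at 4309 CPM and for Mt2 at 23.0 CPM. It was on the low side for Glul, at 52.0 CPM. Replicate 2 was high for Hbb-y, at 1.64 CPM, and for the cold thermoreceptor list, which is mostly Trpm8 and Cdh8, at a summed 104 TPM. It was low for Fech, at 37.0 CPM, a gene whose 4 libraries differed by less than counting error.

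Replicate 3 was low for Ret, at 676 CPM, for the neurotrophic receptor list at a summed 4935 TPM and for the granin and peptide processing list at 4169 TPM. It was high for the pericyte and smooth muscle list, at 6.03 TPM, and for the Y-linked gene Kdm5d, at 16.8 CPM. Replicate 4 was high for Prph, at 2994 CPM, and for Scn3b, at 292 CPM.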

How the results depend on the processing

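No paired analysis was possible because a single group is described and no value comes from a test. Scaling by total count alone moved the median CV from 6.72% to 7.05% and the common biological coefficient of variation from 8.23% to 8.48%, and genes of at least 10 CPM had a median CV of 5.07%. Leaving out each replicate gave median CVs of 6.21% to 6.49% and common values of 8.02% to 8.45%. With the longest transcript as length, the summed TPM of the 4 non-neuronal lists was 74.1 in place of 62.3, and that of the Schwann and satellite glia list 2173 in place of 2644. The median member of these lists was at 0.164 and 0.266 TPM. Of the 20 genes highest by TPM, 18 were still among the 20 highest with the longest transcript, and 15 without mitochondrially encoded genes and Malat1 in the table, which removes 5 of them. The number of detected genes was 14845 at 0.5 CPM in all libraries and 16187 by filterByExpr, within 1.5 times of 13344. Other library scaling moved named genes by at most 1.021 times, leaving out 1 library moved 12 of 776 CPM values by over 1.5 times, and the longest transcript moved 11 of 192 TPM values by over 1.5 times (Oprm1 by 2.59 times).

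An SD over 4 libraries is itself imprecise. Genes that share sequence, and lengths from an annotation other than the authors', limit single TPM values.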

Other observations

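The Hox genes, which record the position of a cell along the body axis, were detected up to group 10 and not above it. Of 39 Hox genes 26 were detected. They were 9 of the 12 genes numbered 1 to 4, 17 of the 18 numbered 5 to 10 and 0 of the 9 numbered 11 to 13. Hoxa5 and Hoxa7 were the highest, at 74.0 ± 3.58 and 72.4 ± 1.77 TPM. Hoxd1, which is linked to nociceptor wiring, was at 69.0, 87.0, 56.7 and 62.6 TPM and overlapped both in range. Hoxc10, a gene of the lumbar region, was at 25.6, 24.1, 32.5 and 30.3 TPM, and the more posterior Hoxc11 and Hoxd11 were at 0.444 and 0.750 CPM. Hoxa13 had 0 counts.

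Genes of both sex chromosomes were present in each library. Xist, transcribed from the inactive X chromosome of females, was at 222, 156, 123 and 107 CPM, highest in replicate 1 and lowest in replicate 4, and its antisense partner Tsix was at 13.6, 9.04, 7.96 and 6.94 CPM in the same order. The pair overlap, and since the strand setting of the counts is not given, their reads cannot be told apart. Of the Y-linked genes listed, Usp9y, Zfy1 and Zfy2 had 0 counts. Ddx3y was at 34.7, 33.5, 31.7 and 31.2 CPM, Eif2s3y at 12.8, 12.6, 12.6 and 11.9 CPM, Kdm5d at 16.1, 16.1, 16.8 and 16.2 CPM and Uty at 14.8, 15.0, 13.5 and 11.5 CPM. Their CVs were 4.93%, 3.32%, 2.07% and 11.6%, against 33.5% for Xist. Kcnq1ot1, another long nuclear RNA, had the same order of libraries as Xist, at 190.4, 146, 118 and 81.8 CPM, and so did Ddx3y and Eif2s3y. The share of female embryos in each library is not given in the sources used here.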
